A study of Mus musculus with 6 samples.

Results

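The genes described here make cholesterol, sense it and move it inside the cell. They include 20 enzymes of the route from acetyl units to cholesterol, with Ggps1 on an isoprenoid side branch. A further 4 genes set the activity of the transcription factor SREBP2, and 4 serve sterol transport, esterification and release from the lysosome. The genes were taken by symbol from a list of 28 names, and all 28 were found among the 24379 genes of the count table. RNA sequencing had been done on RAW264.7 cells, a mouse line with macrophage traits derived from a virus-induced tumour. By their labels, 3 libraries came from cells given high-fructose corn syrup (HFCS), which holds both simple sugars unlinked, for 18 h. A further 3, called WT in the labels, also at 18 h, are here termed control. The HFCS dose is 140 mM in the titles and treatment labels and 170 mM in the source names, and no label says what the control cells received.

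Total counts per library were 13108485 to 15340255. The labels do not tell separate cultures from repeat libraries, and the p-values reflect only how far these libraries differ among themselves, possibly for technical reasons alone. Akr1b3, the aldose reductase gene induced by hypertonic stress, lay at 195 to 217 CPM (counts scaled to library size) in the HFCS-labelled libraries, against 7134 to 7864 CPM in those labelled control. The known response to added sugar has the other direction, so groups are named by their labels and every direction rests on them. All 8 macrophage markers were counted, and their sum was 2140 to 2180 CPM in HFCS-labelled libraries and 1840 to 1920 CPM in control-labelled ones. These markers did not move one way: 6 were higher in the HFCS-labelled libraries, among them Fcgr1 (1.56) and Adgre1 (1.04), while Csf1r (-0.67) and Cd68 (-0.42) were lower (log2 fold changes), and their part in the results below was not tested. Marker sums of other cell types were low: at most 1.78 CPM for fibroblasts, 0.208 CPM for epithelium, 0.440 CPM for T cells and 4.56 CPM for B cells in any library. Genes of mitosis moved with the groups: all 10 of the list were lower in the HFCS-labelled libraries (median log2 fold change -0.55). The part of these mitosis genes in the results below was not tested. Over all tested genes, 22.5% were lower and 22.4% higher by edgeR at an adjusted p under 0.05. The marker and mitosis counts follow the same rule and are to be read beside those shares. Control replicate 1 stood apart from its group on the second principal component (29.3, against -14.2 and -13.4 in control replicates 2 and 3), so calls of the 28 genes that change without it are given with the gene.

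Cells make cholesterol by joining acetyl units into mevalonate, turning mevalonate into isoprenoid units, joining these into squalene, and closing and trimming the sterol rings. When sterols in the endoplasmic reticulum run low, SCAP carries SREBP2 to the Golgi, where proteases free a fragment that enters the nucleus and switches on the genes of this route. When sterols are plentiful, the INSIG proteins hold SCAP and SREBP2 back. Macrophages also take in cholesterol with lipoproteins and debris, free it from its esters in the lysosome, export it from there and store the surplus again as esters.

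SREBP2 binds sterol regulatory elements next to sites for helper factors, of which NF-Y, the factor that binds CCAAT boxes, is the best known. Promoters from RefSeq (GRCm38.p6) were found for 23 of the 28 genes. For each, 1 start was taken, the one nearest the 5′ end of the gene in the count table. The 250 bases before the start were searched on both strands for TCACNCCAC, a core of the sterol regulatory element, and for CCAAT. No match of the one overlapped a match of the other in the promoters printed here. TCACNCCAC was in 1 of the 23 promoters (4.35%), that of Hmgcs1, and in 1.05% of all 32851 RefSeq promoters. These 32851 keep every listed start of a gene, so the shares come from sets of starts chosen in different ways. CCAAT was in 20 of the 23 (87.0%) and in 33.8% of all promoters, and at least 2 such boxes were in 11 of the 23 (47.8%) and in 10.1% of all. The members' promoters also had more G and C, with a median of 61.6% against 52.4% over all promoters. These matches are descriptions of letters, and a window without a match says nothing about binding. Promoters are printed for Hmgcs1, which holds the TCACNCCAC match, and Mvd, both lower in the HFCS-labelled libraries. That of Mvk, which holds 5 CCAAT boxes and did not pass the test, is printed too. So are those of Insig1 and Insig2, which moved in opposite directions. Sequences run 5′ to 3′ towards the start on the gene's own strand, and capitals mark CCAAT on either strand (CCAAT or ATTGG) and, in Hmgcs1, also TCACCCCAC. They lie at chr13:119690101-119690350 on the plus strand for Hmgcs1, chr8:122443423-122443672 on the minus strand for Mvd, chr5:114444019-114444268 on the plus strand for Mvk, chr5:28071162-28071362 on the plus strand for Insig1 (stopped where the gene begins in the count table) and chr1:121332590-121332839 on the minus strand for Insig2.
Hmgcs1: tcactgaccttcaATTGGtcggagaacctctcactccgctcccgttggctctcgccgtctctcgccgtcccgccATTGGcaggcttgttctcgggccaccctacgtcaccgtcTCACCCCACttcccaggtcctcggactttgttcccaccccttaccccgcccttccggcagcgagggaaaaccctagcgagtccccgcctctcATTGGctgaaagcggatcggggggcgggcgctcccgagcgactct
Mvd: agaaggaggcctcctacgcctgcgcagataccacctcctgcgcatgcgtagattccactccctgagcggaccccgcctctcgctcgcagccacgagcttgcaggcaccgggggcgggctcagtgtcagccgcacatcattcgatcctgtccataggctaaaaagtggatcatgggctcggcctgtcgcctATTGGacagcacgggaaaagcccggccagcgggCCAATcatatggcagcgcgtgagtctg
Mvk: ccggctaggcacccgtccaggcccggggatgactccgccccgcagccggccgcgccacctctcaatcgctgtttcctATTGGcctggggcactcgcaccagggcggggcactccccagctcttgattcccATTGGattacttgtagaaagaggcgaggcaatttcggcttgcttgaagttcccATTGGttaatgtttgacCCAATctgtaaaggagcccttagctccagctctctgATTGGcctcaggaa
Insig1: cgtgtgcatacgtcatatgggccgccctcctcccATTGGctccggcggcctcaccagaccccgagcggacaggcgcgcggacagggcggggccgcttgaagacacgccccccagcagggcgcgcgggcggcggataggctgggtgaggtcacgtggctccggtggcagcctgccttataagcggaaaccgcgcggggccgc
Insig2: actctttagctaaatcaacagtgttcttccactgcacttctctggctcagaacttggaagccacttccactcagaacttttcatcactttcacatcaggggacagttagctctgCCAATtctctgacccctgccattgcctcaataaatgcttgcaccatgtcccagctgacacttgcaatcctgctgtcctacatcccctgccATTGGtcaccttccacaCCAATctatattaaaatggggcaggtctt

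In the Hmgcs1 promoter the element TCACCCCAC began 137 bases before the start, and CCAAT boxes began 237, 176 and 45 bases before it. Mvk had its 5 boxes spread from 173 to 14 bases before the start. Insig1 had 1 box, 216 bases before the RefSeq start, and Insig2 had 3. The printed Insig1 sequence leaves out the last 49 bases before its RefSeq start. RefSeq lists 3 starts for Insig2, and only the promoter of the chosen start is described. Which start these cells use was not tested.

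The comparison asked how HFCS-labelled cells differ from control-labelled cells in cholesterol genes. Of the 28 genes, all passed the filter on low counts, 17 were lower and 2 higher in the HFCS-labelled libraries at an adjusted p under 0.05, and 9 did not pass (edgeR's quasi-likelihood test, Benjamini-Hochberg adjustment over 14360 genes). The background was high: 22.5% of all tested genes were lower and 22.4% higher by the same rule. The median log2 fold change was -0.46 over the 28 genes and 0.00 over all tested genes. The libraries of the groups did not overlap for 18 genes that were lower and 2 that were higher, against 27.2% of all tested genes that were lower and 27.4% that were higher without overlap (54.5% in either direction). At least 2-fold lower were 5 genes, Acat2, Fdps, Msmo1, Insig1 and Lipa, against 6.40% of all tested genes. Together the 28 genes took 0.219, 0.218 and 0.221% of counts in the HFCS-labelled and 0.311, 0.333 and 0.323% in the control-labelled libraries. In bulk RNA, fewer cells that express a gene and less of its RNA per cell cannot be told apart.

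**Figure D1:**
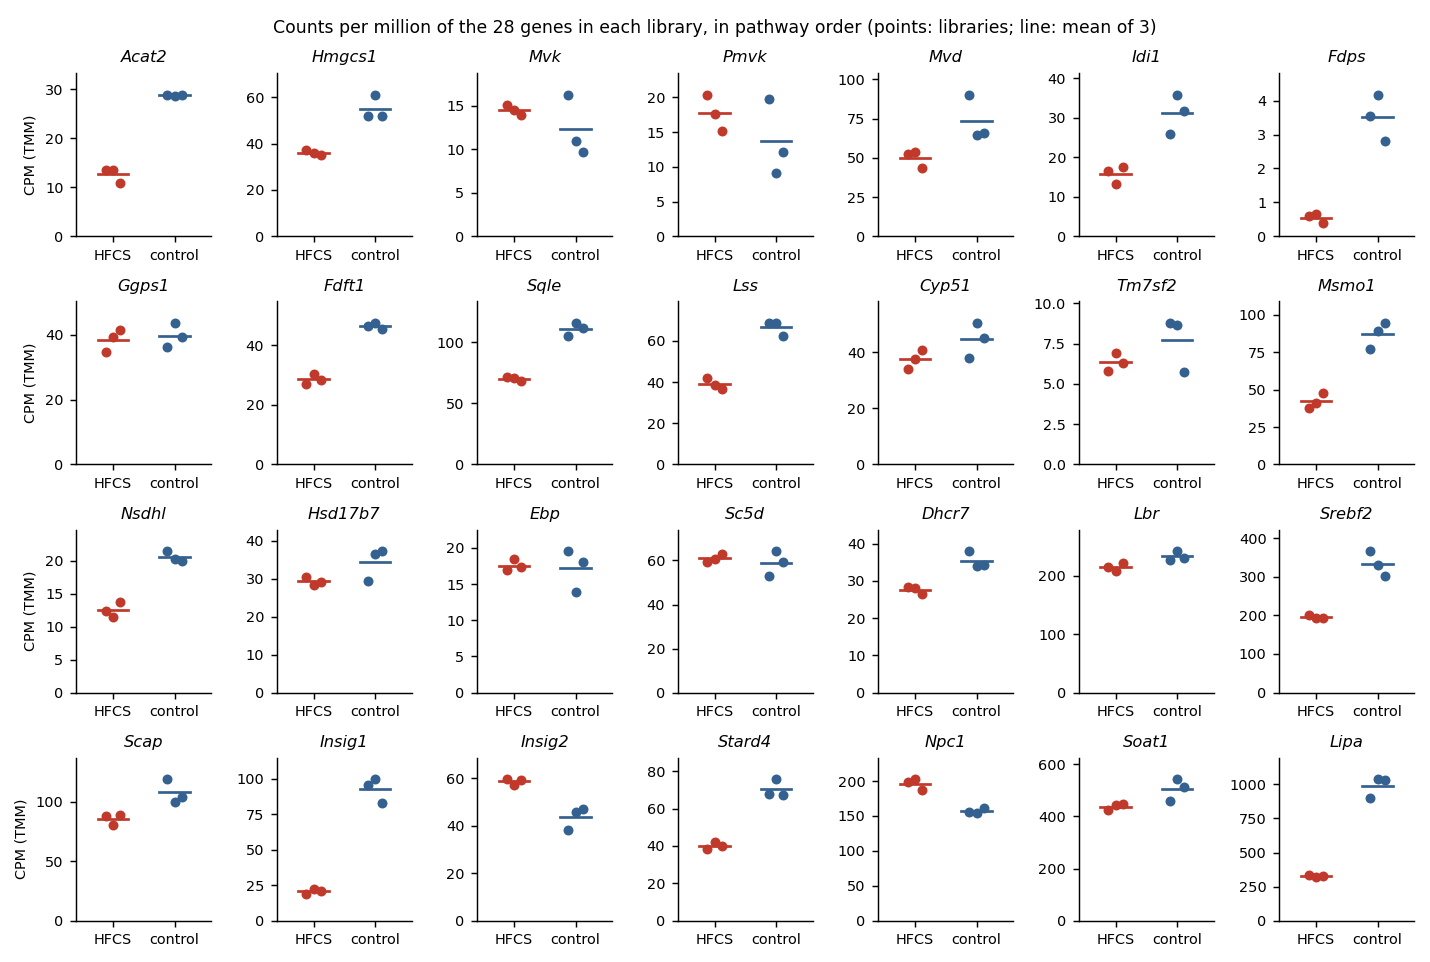
CPM (vertical axes, from 0, scaled to each gene) of the 28 genes in pathway order, with HFCS-labelled libraries in red on the left and control-labelled libraries in blue on the right of each panel. Points are single libraries and lines the means of 3. The red points lie below all blue points for 18 genes and above them for Insig2 and Npc1.

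In the mevalonate arm, the genes for the entry steps and for the last step were lower in the HFCS-labelled libraries, and those for the kinases between them were not. Acat2, the cytosolic thiolase that joins acetyl units (chromosome 17, 12942890 to 12960747, minus strand, mm10), had 13.6, 13.6 and 10.8 CPM in HFCS-labelled against 28.9, 28.5 and 28.8 CPM in control-labelled libraries. The HFCS-labelled libraries all lay below the narrow range of the others, and the log2 fold change was -1.18 ± 0.12 (SE, edgeR adjusted p = 2.69e-05). Its near copy Acat3, 98.3% alike over 1441 transcript bases, held 36 counts in all 6 libraries. The chaperonin gene Tcp1, with 37553 counts, matches the Acat2 transcript over 435 bases (99.1%), so its counts are uncertain there. Hmgcs1, the synthase that adds the next acetyl unit (chromosome 13, 119690379 to 119708260, plus strand), had 37.1, 36.0 and 35.3 CPM in HFCS-labelled against 51.8, 61.2 and 51.9 CPM in control-labelled libraries. Its change was -0.61 ± 0.09 (edgeR adjusted p = 3.66e-04), and the groups did not overlap.

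The mevalonate kinase gene Mvk had 15.1, 14.5 and 14 CPM in HFCS-labelled libraries and 16.3, 10.9 and 9.74 CPM in control-labelled libraries. Pmvk, the phosphomevalonate kinase gene, had 20.4, 17.6 and 15.1 against 19.8, 9.10 and 12.1 CPM, in the same order of groups. In both, control replicate 1 lay well above the other control-labelled libraries and inside or above the HFCS-labelled range. With it, neither passed the test (0.23, edgeR adjusted p = 0.317, and 0.36, adjusted p = 0.240). Without it, Mvk was at 0.49 (edgeR adjusted p = 0.00751) and Pmvk at 0.73 (adjusted p = 0.00176), both higher in the HFCS-labelled libraries. Mvd, the decarboxylase that yields isopentenyl diphosphate, had 52.4, 53.8 and 43.5 CPM in HFCS-labelled against 90.4, 64.7 and 65.6 CPM in control-labelled libraries. It fell by 0.56 on the log2 scale (SE 0.13, edgeR adjusted p = 0.00620) and by 0.38 without control replicate 1 (adjusted p = 0.00276).

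Of the 3 isoprenoid genes, Idi1 and Fdps were lower in the HFCS-labelled libraries, as were 22.5% of all tested genes. Idi1, the isomerase of isopentenyl diphosphate, had 16.6, 13.3 and 17.5 CPM in HFCS-labelled against 25.9, 35.9 and 31.6 CPM in control-labelled libraries, a change of -0.98 ± 0.15 (edgeR adjusted p = 3.77e-04). Fdps, the farnesyl diphosphate synthase gene (chromosome 3, 89093588 to 89101959, minus strand), was counted 8, 10 and 6 times in HFCS-labelled and 51, 57 and 40 times in control-labelled libraries. That gave -2.68 ± 0.33 (edgeR adjusted p = 1.10e-04), the lowest fold change among the 28 genes.

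The size of the Fdps change is uncertain. A processed pseudogene, Gm3571, is 98.9% alike over 1062 transcript bases and held 378 counts, more than the 172 of Fdps itself, and a further copy, Gm5873, held 57. Gm3571 had 3.57, 4.38 and 4.18 CPM in HFCS-labelled libraries and 5.06, 3.60 and 5.29 CPM in control-labelled libraries, with groups that overlapped. Fdps and both copies together had 5.23 ± 0.184 CPM in HFCS-labelled libraries and 8.85 ± 0.470 CPM in control-labelled libraries (SD, n = 3 each), so the direction was the same for the sum and the gap far smaller. Ggps1, which makes the longer geranylgeranyl diphosphate used to anchor proteins in membranes, had 34.6, 39.2 and 41.3 CPM in HFCS-labelled libraries and 36.3, 43.7 and 39.2 CPM in control-labelled libraries. The groups overlapped almost fully (-0.05 ± 0.10, edgeR adjusted p = 0.729), and its counts are uncertain because its exons overlap those of Arid4b on the other strand.

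All 3 genes that make squalene and close the rings were lower in the HFCS-labelled libraries. Fdft1, squalene synthase, had 26.9, 30.3 and 28.2 CPM in HFCS-labelled against 46.3, 47.5 and 45.3 CPM in control-labelled libraries (-0.70 ± 0.09, edgeR adjusted p = 1.02e-04). Part of its transcript lies opposite the much more abundant cathepsin gene Ctsb, over 774 bases, so its counts are uncertain: no source used here gives the strand setting. Sqle, the squalene epoxidase gene and a known control point of the route, had 71.2, 70.8 and 68.2 against 105, 116 and 112 CPM, in the same order (-0.66 ± 0.07, edgeR adjusted p = 3.65e-05). Lss, which closes the rings to lanosterol, had 42.1, 38.5 and 36.8 CPM in HFCS-labelled against 68.4, 68.8 and 62.3 CPM in control-labelled libraries (-0.77 ± 0.08, edgeR adjusted p = 4.98e-05). No library of either group overlapped the other group in any of the 3. Of all tested genes, 22.5% were lower, and 27.2% lay lower without overlap.

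Of the 9 genes for the steps after lanosterol, 3 were lower in the HFCS-labelled libraries and 6 did not pass the test, with a median log2 fold change of -0.25. Of all tested genes, 22.5% were lower. Msmo1, which oxidises the methyl groups at carbon 4, had 37.7, 40.9 and 47.9 CPM in HFCS-labelled against 77.1, 89.5 and 94.8 CPM in control-labelled libraries (-1.05 ± 0.11, edgeR adjusted p = 3.16e-05). Nsdhl, the dehydrogenase that acts next on those groups, had 12.4, 11.5 and 13.7 against 21.5, 20.3 and 20.0 CPM, in the same order (-0.71 ± 0.12, edgeR adjusted p = 6.16e-04). Hsd17b7, the reductase that completes the removal, had 30.4, 28.3 and 29.1 CPM in HFCS-labelled libraries and 29.3, 36.4 and 37.3 CPM in control-labelled libraries. Of the genes for this demethylation, Msmo1 and Nsdhl passed and Hsd17b7 did not (-0.23, edgeR adjusted p = 0.109), though it was lower without control replicate 1 (-0.33, adjusted p = 0.00655).

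Cyp51, the cytochrome that removes the methyl group at carbon 14, had 34.2, 37.7 and 40.9 CPM in HFCS-labelled libraries and 38.1, 50.6 and 45.2 CPM in control-labelled libraries. The overlap came from control replicate 1, without which its change of -0.34 passed the test (edgeR adjusted p = 0.00727, against -0.25 and 0.105 with all libraries). Exons of Akap9 lie opposite those of Cyp51, so its counts are uncertain. Dhcr7, the reductase of the last step of one branch, had 28.3, 28.2 and 26.5 CPM in HFCS-labelled against 38.1, 34.1 and 34.2 CPM in control-labelled libraries, lower by a modest amount (-0.36 ± 0.09, edgeR adjusted p = 0.00877). Ebp, the isomerase that shifts a ring double bond, had 16.9, 18.5 and 17.3 CPM in HFCS-labelled libraries and 19.6, 13.9 and 18.0 CPM in control-labelled libraries (0.03 ± 0.14, edgeR adjusted p = 0.864). Sc5d, the desaturase that follows it, had 59.2, 60.8 and 62.8 against 53.1, 64.4 and 59.1 CPM, in the same order (0.05 ± 0.09, edgeR adjusted p = 0.656). In Ebp and Sc5d the groups overlapped.

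Tm7sf2 and Lbr both code for sterol C14 reductases, Lbr also being the receptor that ties heterochromatin to the nuclear lamina. Tm7sf2 had 5.79, 6.93 and 6.33 CPM in HFCS-labelled libraries and 8.81, 8.66 and 5.72 CPM in control-labelled libraries (-0.28 ± 0.19, edgeR adjusted p = 0.264). Lbr had 216, 208 and 222 against 228, 243 and 230 CPM, in the same order, and here the groups did not overlap although the change of -0.12 ± 0.06 missed the threshold (edgeR adjusted p = 0.152). Per kilobase of exon, Lbr stood at 45.2 ± 1.45 CPM in HFCS-labelled libraries and 49.1 ± 1.71 CPM in control-labelled libraries and Tm7sf2 at 1.44 ± 0.129 and 1.76 ± 0.396 CPM (SD, n = 3 each). The log2 ratio of Tm7sf2 to Lbr counts was -5.06 ± 0.16 in HFCS-labelled and -4.92 ± 0.33 in control-labelled libraries (exact permutation test, two-sided p = 0.6, n = 3 each). The exons of Tm7sf2 overlap those of Vps51 on the same strand, so its counts are uncertain.

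**Figure D2:**
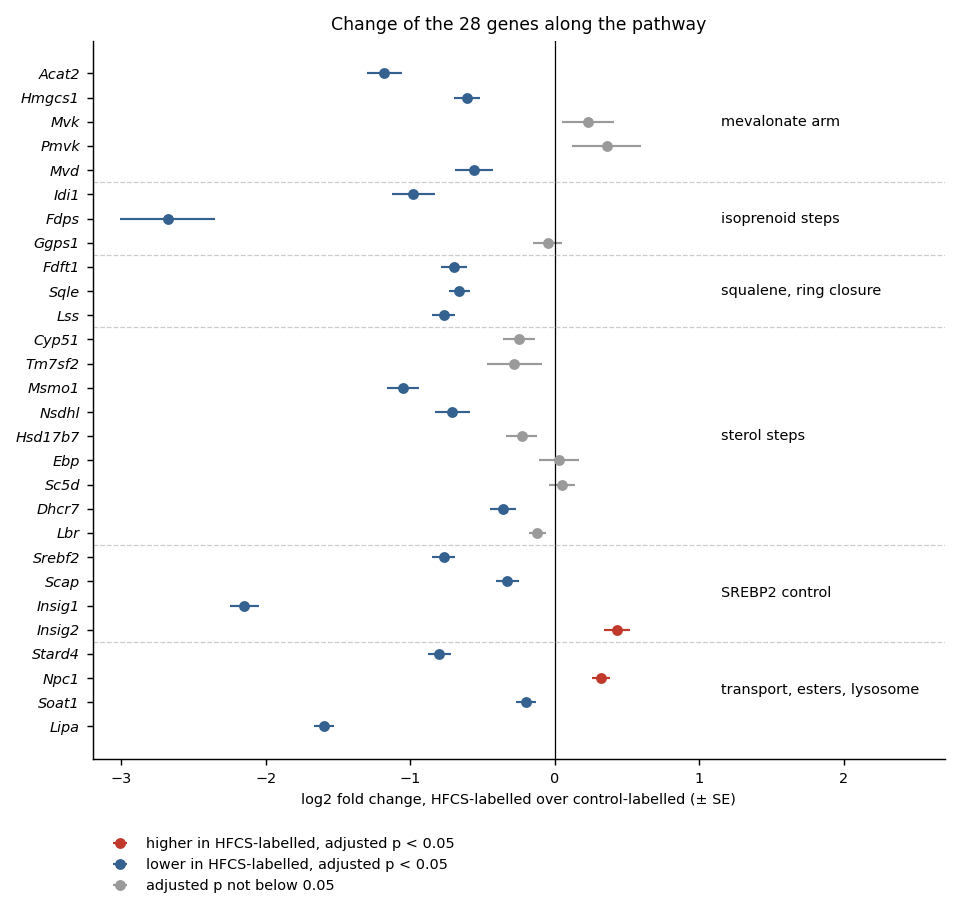
Log2 fold change of each gene, HFCS-labelled over control-labelled libraries (horizontal axis, bars are SE), down the pathway from Acat2 to Lipa, with dashed lines between roles. Blue points (17) passed the test as lower, red points (2) as higher and grey points (9) did not pass. Fdps at -2.68, Insig1 at -2.15 and Lipa at -1.60 lie farthest to the left. The size of the Fdps change is uncertain because of its near-identical copies.

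All 4 genes that control SREBP2 passed the test, 3 as lower and 1 as higher, and the INSIG genes did so in opposite directions. Of all tested genes, 44.9% passed in either direction. Srebf2, which codes for SREBP2 itself (chromosome 15, 82147181 to 82205379, plus strand), had 200, 193 and 192 CPM in HFCS-labelled against 367, 331 and 302 CPM in control-labelled libraries. Its change was -0.77 ± 0.08 (edgeR adjusted p = 2.76e-05), with every HFCS-labelled library well below the control-labelled ones. Scap, the escort of SREBP2, had 88.1, 80.3 and 88.4 CPM in HFCS-labelled against 119, 100 and 104 CPM in control-labelled libraries. Its change was smaller, -0.33 ± 0.08 (edgeR adjusted p = 0.00774), and did not pass without HFCS replicate 2 (-0.27, adjusted p = 0.0546).

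Insig1, which is itself a target of SREBP2 (chromosome 5, 28071363 to 28078662, plus strand), had 19.1, 22.6 and 21.1 CPM in HFCS-labelled against 96.0, 100 and 82.8 CPM in control-labelled libraries. It was 4.44-fold lower in the HFCS-labelled libraries (log2 fold change -2.15 ± 0.10, edgeR adjusted p = 1.59e-07). Insig2, the related gene that is known to depend less on SREBP2 (chromosome 1, 121304353 to 121332589, minus strand), had 59.7, 57.3 and 59.3 CPM in HFCS-labelled against 38.3, 45.8 and 47.0 CPM in control-labelled libraries. It rose by 0.43 on that scale (SE 0.09, edgeR adjusted p = 0.00333), and the groups of both genes were clear of each other.

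The order of the INSIG genes turned round between the groups. Per kilobase of exon, Insig1 stood at 6.77 ± 0.574 and Insig2 at 16.9 ± 0.363 CPM in HFCS-labelled libraries, against 30.1 ± 2.93 and 12.6 ± 1.36 CPM in control-labelled libraries (SD, n = 3 each). The log2 ratio of Insig1 to Insig2 counts within a library was -1.64, -1.34 and -1.49 in HFCS-labelled and 1.32, 1.13 and 0.81 in control-labelled libraries. The difference of -2.57 had a two-sided exact permutation p of 0.1, the smallest that 3 libraries against 3 can give.

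Sterol movement and storage genes went both ways. Stard4, a soluble carrier that brings sterol to the endoplasmic reticulum and a known SREBP2 target, had 38.4, 42.1 and 40.1 CPM in HFCS-labelled against 67.8, 75.8 and 67.0 CPM in control-labelled libraries (-0.80 ± 0.08, edgeR adjusted p = 3.18e-05). Npc1, the membrane protein that exports cholesterol from the lysosome, had 198, 203 and 187 against 156, 154 and 161 CPM, in the same order, and was higher in the HFCS-labelled libraries (0.32 ± 0.06, edgeR adjusted p = 0.00201). Over 323 bases its transcript lies opposite that of Rmc1, which held 25.6% as many counts. Soat1, the enzyme that esterifies surplus cholesterol for storage, had 423, 443 and 446 CPM in HFCS-labelled against 458, 543 and 511 CPM in control-labelled libraries. Its call as lower was fragile (-0.20 ± 0.07, edgeR adjusted p = 0.0427). It was lost without HFCS replicate 1 (-0.16, adjusted p = 0.188), 2 (-0.20, 0.113) or 3 (-0.20, 0.0892) and without control replicate 2 (-0.14, 0.157) or 3 (-0.19, 0.119), and with scaling by library size alone (-0.12, 0.188) or no filter on low counts (-0.17, 0.0884).

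Lipa, the lysosomal acid lipase that frees cholesterol from its esters (chromosome 19, 34492318 to 34527474, minus strand), had 332, 319 and 330 CPM in HFCS-labelled against 897, 1040 and 1030 CPM in control-labelled libraries. The lowest control-labelled library was well over the highest HFCS-labelled one, and Lipa was 3.04-fold lower in the HFCS-labelled libraries (log2 fold change -1.60 ± 0.07, edgeR adjusted p = 1.42e-07). Within libraries, the log2 ratio of Soat1 to Lipa counts was 0.35, 0.48 and 0.44 in HFCS-labelled and -0.97, -0.94 and -1.02 in control-labelled libraries. That difference of 1.40 again had the smallest exact permutation p possible, 0.1 (two-sided). Per kilobase of exon, Lipa at 48.2 ± 1.03 CPM and Soat1 at 44.7 ± 1.27 CPM were close in HFCS-labelled libraries, while in control-labelled libraries Lipa stood at 146 ± 12.1 CPM and Soat1 at 51.5 ± 4.38 CPM (SD, n = 3 each).

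**Figure D3:**
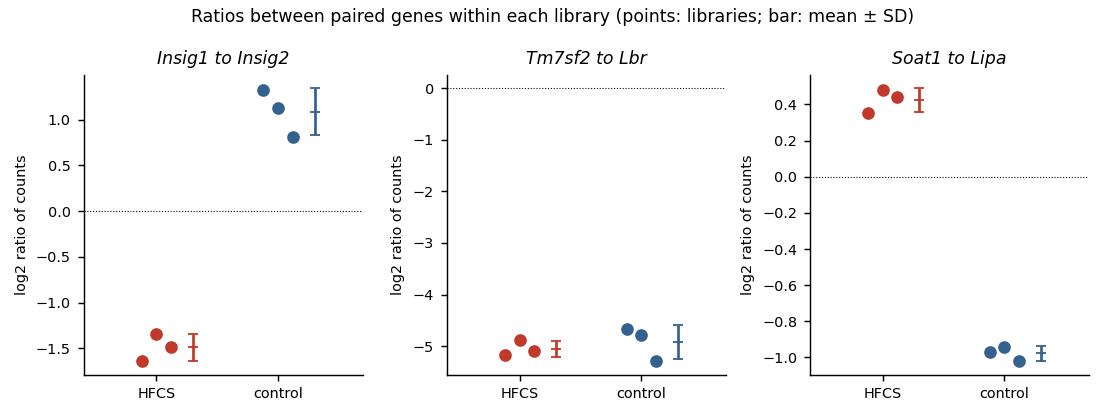
Log2 ratio of the counts of paired genes within each library (vertical axes), for Insig1 to Insig2, Tm7sf2 to Lbr and Soat1 to Lipa, with HFCS-labelled libraries in red on the left and control-labelled libraries in blue on the right, and bars of mean ± SD. The groups are apart in the panels of Insig1 to Insig2 (-1.49 against 1.09) and Soat1 to Lipa (0.42 against -0.98) and overlap in that of Tm7sf2 to Lbr.

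Across the roles, the summed CPM of the HFCS-labelled libraries relative to the control-labelled ones was 0.714 for the mevalonate arm, 0.736 for the isoprenoid steps, 0.615 for squalene and ring closure, 0.833 for the sterol steps, 0.624 for SREBP2 control and 0.581 for transport, esters and lysosome. These ratios have no firm order, since the places of squalene and SREBP2 control, and of the mevalonate and isoprenoid genes, changed when single libraries were left out. The value for transport rests on Lipa: without it, a choice made after seeing the data, the sum was 674 ± 14.3 CPM in HFCS-labelled libraries against 732 ± 46.1 CPM in control-labelled ones (SD, n = 3 each), a ratio of 0.921. Over all 28 genes the sum was 2130 ± 7.08 CPM in HFCS-labelled libraries and 3320 ± 121 CPM in control-labelled ones (SD, n = 3 each). Without Lipa it was 1810 ± 7.84 CPM in HFCS-labelled libraries against 2330 ± 64.5 CPM in control-labelled ones.

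Levels per kilobase of exon spanned a wide range. The length used is that of all annotated exons of a gene merged, which can far exceed a single transcript. For Fdps it is 4208 bases, against 1382 in its longest protein-coding transcript. The order of genes, and how close any of them lie, depends on this length. In both groups Lipa was the highest of the 28 genes and Fdps and Tm7sf2 the lowest. The low places of Fdps and Tm7sf2 are uncertain, given the near-identical copies of Fdps and the exons that Tm7sf2 shares with Vps51. Behind Lipa in the control-labelled libraries came Soat1 (51.5 ± 4.38 CPM per kilobase), Lbr (49.1 ± 1.71) and Srebf2 (46.4 ± 4.51), which did not differ beyond their spread (SD, n = 3). Among the enzymes of synthesis, Lbr and then Mvd (26.9 ± 3.02 in HFCS-labelled and 39.6 ± 7.87 in control-labelled libraries) stood highest. Insig1 took place 18 of 28 in the HFCS-labelled and place 6 in the control-labelled libraries, and Msmo1 place 17 and place 9.

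**Figure D4:**
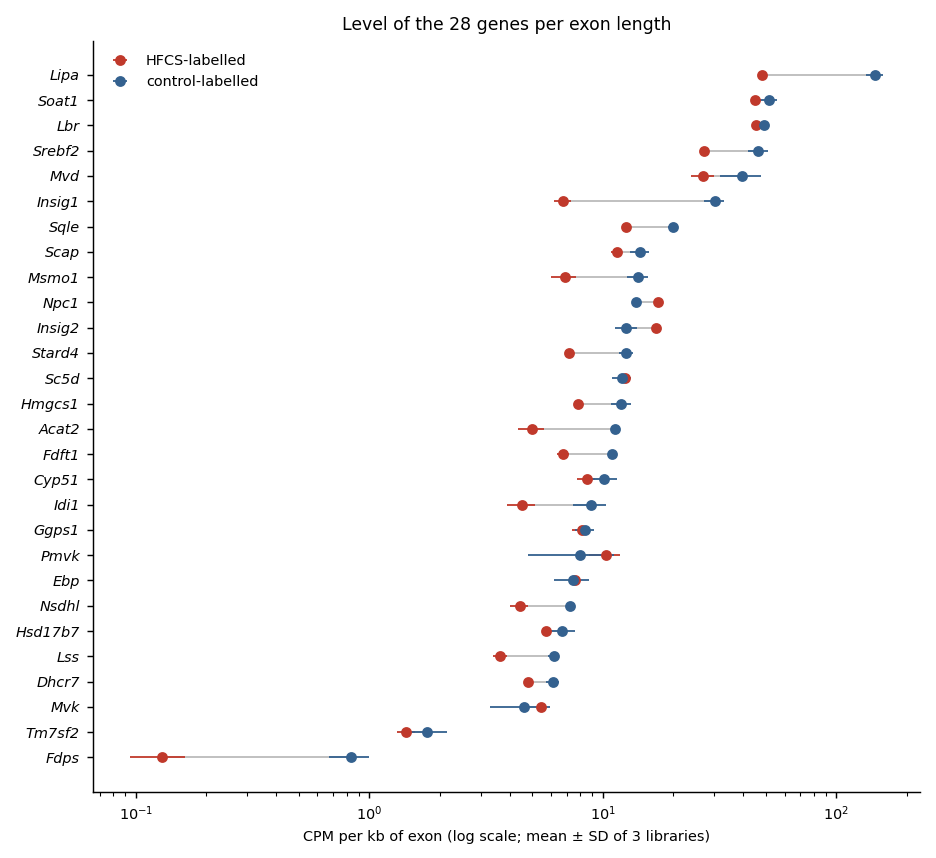
Level of each gene in CPM per kilobase of exon (horizontal axis, log scale), as mean ± SD of the 3 HFCS-labelled libraries in red and of the 3 control-labelled libraries in blue, joined by grey lines. Genes are ordered by their control-labelled level, from Lipa at 146 to Fdps at 0.835, and long lines mark Lipa, Insig1 and Fdps. The level of Fdps and the length of its line are uncertain because of its near-identical copies.

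Genes around the route were taken as lists, to be read beside the 22.5% of all tested genes that were lower and the 22.4% that were higher. Of 14 further reported targets of SREBP factors, many of them for fatty acid synthesis, 9 were lower in the HFCS-labelled libraries, none was higher and 5 did not pass, with a median log2 fold change of -0.49. Scd1, the stearoyl-CoA desaturase gene, had 26.1 ± 2.79 CPM in HFCS-labelled libraries and 64.3 ± 5.31 CPM in control-labelled libraries (SD, n = 3 each, edgeR adjusted p = 5.87e-06). Fasn, the fatty acid synthase gene, had 251 ± 6.45 and 400 ± 16.3 CPM, in the same order (edgeR adjusted p = 1.69e-05). Mmab, which shares its promoter region with Mvk and serves vitamin B12 metabolism, was lower at -0.49 (edgeR adjusted p = 0.00781), beside 0.23 for Mvk. Tmem97 and Aacs lay at -0.01 and 0.02.

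Further genes cut, hold or degrade proteins of this system. Of 10 that were tested among 11 listed, 4 were higher, none lower and 6 did not pass, with a median log2 fold change of 0.11. Over all tested genes, 22.4% were higher and 22.5% lower. The protease genes Mbtps1 (-0.14, edgeR adjusted p = 0.0804) and Mbtps2 (0.05, adjusted p = 0.781) did not pass, nor did Srebf1, the relative of Srebf2 (-0.21, adjusted p = 0.0694), whose counts are uncertain because its exons overlap those of Rai1 on the other strand. Erlin1, part of a complex that hands proteins of the endoplasmic reticulum to degradation, had 109 ± 5.59 CPM in HFCS-labelled libraries and 70.1 ± 5.45 CPM in control-labelled libraries (SD, n = 3 each, edgeR adjusted p = 1.18e-04). Pgrmc1, a haem-binding membrane protein, rose by 0.71 and Erlin2 by 0.56 on the log2 scale.

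Among 14 genes that use the isoprenoids, 6 were higher, 2 lower and 6 did not pass, with a median log2 fold change of 0.07. For this list and those below, the shares over all tested genes were 22.4% higher and 22.5% lower. Icmt, which methylates prenylated proteins, had 111 ± 4.91 CPM in HFCS-labelled libraries and 76.7 ± 2.39 CPM in control-labelled libraries (SD, n = 3 each), a rise of 0.53 on the log2 scale (edgeR adjusted p = 1.38e-04). Of 11 tested genes, among 12 listed, for sterol movement between membranes and for uptake, 5 were higher and 4 lower, with a median of 0.22. Stard3, a sterol carrier of late endosomes, rose by 0.70 and the oxysterol-binding protein gene Osbp by 0.50, while the lipoprotein receptor genes Lrp8 and Scarb1 fell by 0.63 and 0.55 on the log2 scale. Of 7 tested genes, among 9 listed, of the sterol sensor LXR and of oxysterols, 3 were higher and 2 lower (median 0.18). The cholesterol exporter gene Abca1 had 85.8 ± 7.85 CPM in HFCS-labelled libraries and 11.2 ± 0.601 CPM in control-labelled libraries (SD, n = 3 each, edgeR adjusted p = 2.60e-08), Abcg1 fell by 0.31, and the receptor gene Nr1h2 rose by 0.59 while Nr1h3 lay at 0.04.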

How the data were processed

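The authors deposited whole-number counts of reads for each gene, with no scaling. CASAVA, featureCounts 1.5.0-p3, HISAT2 2.0.5 and build mm10 are named, per the submitters' processing notes, without order or settings. No source used here gives the annotation release, strand setting or filters. Symbols were matched for 24344 of 24379 identifiers, and 23705 genes (97.2%) had the same coordinates and strand in GENCODE M21, which gave exon lengths. The 14360 genes that passed filterByExpr (minimum count 10) were scaled by TMM and compared with edgeR 4.0.16 (R 4.3.3), glmQLFit and glmQLFTest with no covariate, SE from the fold change and F statistic. CPM uses the TMM library sizes. Ratios within a library had 2 counts added. Members' transcripts were aligned to those of other genes with minimap2 2.31-r1302, keeping at least 95% identity over 100 bases, and 8 of 28 members had such a match. Alternatives were DESeq2 1.42.0, limma-voom (limma 3.58.1), scaling by upper quartile, by library size alone or by median of ratios, other filters, a replicate block and each library left out.

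All 28 members are named in pathway order. Of each further list, the genes with the smallest adjusted p and others chosen after their values were seen are named, except some that are not reported here. The members and lists were chosen with earlier results of these data known, including that cholesterol genes were lower in the HFCS-labelled libraries. Only 1 promoter had an exact match to TCACNCCAC, so the other printed promoters were chosen after the results were seen. Intervals given as SD or SE cover the spread between libraries. No libraries of a group agreed within sampling noise (chi-square divided by its degrees of freedom, 2.60 to 16.7).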

Additional observations from a re-analysis of the deposited data

How the results depend on the processing

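The number of members that were lower was 16 to 18 under the 8 other fits with all libraries, and 2 were higher, or 3 with the replicate block. With single libraries left out, 15 to 19 were lower and 2 to 4 higher, the 4 without control replicate 1 (Mvk and Pmvk joining), and 8 calls were lost and 6 gained over all settings and members. Of the recomputed fold changes of members, 373 kept their direction and side of the threshold, and Scap, Soat1 and the genes gained without control replicate 1 are given with their values above. Signs turned only in genes that never passed: Ggps1 with library-size scaling (0.03) and without HFCS replicate 1 (0.04) or control replicate 2 (0.03), Ebp without control replicate 2 (-0.09) and Sc5d without control replicate 1 (-0.01). With single libraries left out these ranged from -0.11 to 0.04, from -0.09 to 0.14 and from -0.01 to 0.12, in the same order. The cause was not tested.

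Scaling by library size alone called 3975 genes higher and 2624 lower, a share of 60.2% higher against 50% with TMM, with a median log2 fold change of 0.08 over all genes. It gave summed CPM ratios of 0.650 for squalene and ring closure, 0.881 for sterol steps, 0.659 for SREBP2 control, 0.614 for transport, esters and lysosome and 0.679 over all members; upper-quartile scaling gave 0.610, 0.568 and 0.628 for the last 3. Leaving Lipa out of the sums, chosen after seeing the data, gave 0.921 for transport, esters and lysosome and 0.775 over all members. With libraries left out the ratios of SREBP2 control, of transport and of all members were 0.602 to 0.647, 0.557 to 0.597 and 0.631 to 0.655. Lower genes among isoprenoid users numbered 1 with library-size scaling, DESeq2 or no filter (1 to 3 with libraries left out). Lower genes among those of SREBP processing numbered 2 with upper-quartile scaling and 2 with the replicate block (0 to 1 with libraries left out). Lower genes of sterol movement numbered 2 with library-size scaling (2 to 4 with libraries left out), and those of LXR and oxysterols 1 with library-size scaling or no filter (1 to 2). The cause was not tested.

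The replicate numbers of the titles were not shown to pair libraries: same-numbered deviations correlated at 0.167, -0.064 and 0.191 across genes, and 4 of 6 libraries correlated best with their own number. With the replicate block, 3619 genes were higher and 3533 lower, and Pmvk (0.41, adjusted p = 0.0324) and Cyp51 (-0.24, adjusted p = 0.0387) passed. With 8, 10 and 6 counts in the HFCS-labelled libraries, Fdps is the member with the fewest counts. Its low counts and its near-identical copies both leave the size of its change uncertain.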

Other observations

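Among near copies and neighbours of the members, Soat2 and Acat1 could be tested, and Acat3 and Idi2 were too low. Soat2, the other cholesterol-esterifying enzyme, known mainly from liver and intestine, had 132 ± 5.37 CPM in HFCS-labelled libraries against 60.3 ± 7.71 CPM in control-labelled ones (SD, n = 3 each). Its log2 fold change was 1.13 ± 0.09 (edgeR adjusted p = 7.69e-06), and it was higher in 3 of 3 HFCS-labelled libraries than in any control-labelled one, while Soat1 lay at -0.20. Acat1, the mitochondrial thiolase, fell by 0.61 (edgeR adjusted p = 1.55e-04) and Acat2 by 1.18 on the log2 scale. The isomerase Idi2, next to Idi1, held 1, 2 and 1 counts in HFCS-labelled and 0, 0 and 3 in control-labelled libraries.

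The desaturase and elongase genes among the further SREBP targets were uneven. Fads1 lay at -0.02 (edgeR adjusted p = 0.782), while Fads2 fell by 0.22 (adjusted p = 0.0338), Elovl6 by 0.52 (adjusted p = 5.56e-04) and Scd2 by 0.50 (adjusted p = 2.37e-04) on the log2 scale. Acaca, the acetyl-CoA carboxylase gene, fell by 0.71 (edgeR adjusted p = 3.21e-05) and the acetate-activating gene Acss2 by 0.76 (adjusted p = 6.60e-04). Counts of Acss2 are uncertain, since its exons overlap those of Gss on the other strand, which held 127% as many counts. Acly, which makes cytosolic acetyl-CoA from citrate, lay at 0.03 (adjusted p = 0.724).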
